A study of Mus musculus with 8 samples.

Results

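The 10 genes described here encode the MHC class I and class II antigen-presentation machinery of the mouse, and they were chosen by name out of 41128 genes in the table. They are B2m, H2-K1, H2-D1, Tap1 and Tap2 of the class I pathway and H2-Aa, H2-Ab1, H2-Eb1, Cd74 and Ciita of the class II pathway. The table's own symbol column named 9 of them, and H2-D1, which has no symbol there, was found by its gene ID (ENSMUSG00000073411) in GENCODE M21. Left ventricles came from 4 mice in which both copies of Nppb carry a CRISPR-made deletion within exon 2 (Nppb KO) and from 4 wild-type (WT) littermates, all of strain FVB and aged 8 to 12 weeks. The gene encodes the precursor of B-type natriuretic peptide, a hormone of the stretched ventricle, and the comparison asks what its loss does to the transcripts of the ventricle. The deletion is not restricted to one cell type by any label, and no label gives the number of founder lines. The labels' growth protocol also names Myh6-MerCreMer, nTnG and Sun1/sfGFP mice on the FVB/N background, without saying whether any of the 8 animals carried those alleles. Total RNA was sequenced, and each library held 20284865 to 34742840 reads assigned to genes.

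Class I molecules sit on nearly all nucleated cells and show peptides of the cell's own proteins to CD8 T cells. They consist of a heavy chain (H2-K1 or H2-D1) and the invariant light chain B2m, and the transporter formed by Tap1 and Tap2 brings peptides into the endoplasmic reticulum for loading. Class II molecules are made mainly by dendritic cells, B cells and macrophages and show peptides from engulfed proteins to CD4 T cells. H2-Aa and H2-Ab1 encode the alpha and beta chains of the A molecule, H2-Eb1 the beta chain of the E molecule, Cd74 the invariant chain that guards the peptide groove during transport, and Ciita the coactivator that switches class II genes on. In the heart these transcripts come largely from non-muscle cells, so a level in whole ventricle mixes the number of such cells with the RNA in each, and fewer cells of a type cannot be told apart from less RNA per cell.

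Promoter windows from RefSeq on GRCm38.p6 were read for 6 of the 10: B2m, H2-K1, H2-D1, H2-Aa, H2-Eb1 and Tap1. Each runs from 250 bases before the start site to 50 bases after it. A further 4, H2-Ab1, Ciita, Tap2 and the invariant chain gene, are named only. The windows of the heavy chains, the light chain, a class II chain and a transporter subunit are shown so that the letters shared within class I can be read against those of class II. Capitals mark matches on either strand to a Y box (ATTGG, bound by NF-Y), an X box form (AGNNACAG, after the site bound by RFX), an interferon response form (GAANNGAAA) and an NF-kB form (GGGANTNCC). The sequence is that of the C57BL/6J reference, and FVB mice carry a different H2 haplotype, so the letters need not be those of the animals sequenced.
H2-K1, chr17:34000298-34000597, reverse strand: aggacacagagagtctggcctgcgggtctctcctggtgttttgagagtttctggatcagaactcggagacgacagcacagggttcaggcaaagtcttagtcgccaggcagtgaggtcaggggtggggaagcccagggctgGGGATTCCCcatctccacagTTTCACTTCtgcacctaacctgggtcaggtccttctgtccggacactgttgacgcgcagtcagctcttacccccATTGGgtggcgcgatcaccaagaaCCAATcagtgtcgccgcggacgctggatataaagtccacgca
H2-D1, chr17:35262844-35263143, forward strand: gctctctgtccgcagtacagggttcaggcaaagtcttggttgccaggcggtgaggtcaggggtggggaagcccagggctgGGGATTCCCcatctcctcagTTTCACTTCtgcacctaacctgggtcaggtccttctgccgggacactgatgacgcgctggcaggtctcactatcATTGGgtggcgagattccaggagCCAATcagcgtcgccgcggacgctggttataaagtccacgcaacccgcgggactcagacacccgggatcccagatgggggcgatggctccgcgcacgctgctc
B2m, chr2:122147437-122147736, forward strand: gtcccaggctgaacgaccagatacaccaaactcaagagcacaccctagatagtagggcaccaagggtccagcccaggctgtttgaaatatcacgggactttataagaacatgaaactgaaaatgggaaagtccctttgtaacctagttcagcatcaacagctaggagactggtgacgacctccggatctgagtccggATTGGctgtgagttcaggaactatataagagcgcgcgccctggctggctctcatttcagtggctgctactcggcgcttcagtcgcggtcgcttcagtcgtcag
H2-Aa, chr17:34287774-34288073, reverse strand: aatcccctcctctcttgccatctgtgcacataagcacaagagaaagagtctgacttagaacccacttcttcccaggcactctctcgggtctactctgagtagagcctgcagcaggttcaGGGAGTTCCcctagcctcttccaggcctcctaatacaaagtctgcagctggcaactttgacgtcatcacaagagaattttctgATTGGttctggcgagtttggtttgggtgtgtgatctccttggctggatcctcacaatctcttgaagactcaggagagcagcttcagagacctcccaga
Tap1, chr17:34187306-34187605, forward strand: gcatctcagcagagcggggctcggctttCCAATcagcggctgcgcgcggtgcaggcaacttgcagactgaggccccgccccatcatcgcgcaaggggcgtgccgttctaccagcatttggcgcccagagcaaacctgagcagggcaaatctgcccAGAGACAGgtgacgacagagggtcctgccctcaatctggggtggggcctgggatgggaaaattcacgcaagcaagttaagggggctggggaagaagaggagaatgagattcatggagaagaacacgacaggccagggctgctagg

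All 6 windows held a Y box match, against 37.4% of the 32851 RefSeq promoter windows of the same length. An interferon response match stood in 2 of the 6, H2-K1 and H2-D1, against 7.52% of all windows. An NF-kB match stood in 3, H2-K1, H2-D1 and H2-Aa, against 3.95%. The X box form stood in 2, H2-Eb1 and Tap1, against 25.9%. The windows of the heavy chain genes H2-K1 and H2-D1 share an unbroken run of 47 identical bases that contains the NF-kB match, whereas the longest run that the H2-K1 window shares with the B2m or the H2-Aa window is 8 bases. The Tap1 window overlaps by 275 bases with that of Psmb9, an immunoproteasome subunit gene read in the opposite direction. Matches of this length are a description of the letters and do not show binding.

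Set per kilobase of annotated exon, the class I light chain and the D heavy chain had the highest values of the 10 genes in the ventricle and Ciita the lowest. The length used is that of all annotated exons of a gene merged, from 0.86 kb for B2m to 9.535 kb for Ciita. The transcripts present may be shorter, so the order of genes and the ratios between them depend on that length. B2m averaged 1924 ± 199 normalized counts per kb and H2-D1 1474 ± 103 (SD, n = 8 ventricles of both genotypes). Cd74 followed at 590.9 ± 90.5 and H2-K1 at 410.2 ± 48.9, and their ranges over the 8 samples overlapped. H2-Aa averaged 152 ± 28.3, H2-Ab1 114 ± 18.5 and Tap2 96.2 ± 7.33 normalized counts per kb. H2-Aa overlapped in range with H2-Ab1, and H2-Ab1 with Tap2, while Tap2 lay above Tap1 in range. Tap1 averaged 28.7 ± 3.04, H2-Eb1 11.1 ± 3.15 and Ciita 7.91 ± 1.73, the last pair again overlapping. The alpha chain of the A molecule, H2-Aa, therefore stood 10.3 to 20.7 times above H2-Eb1, the E beta chain, per kb within single samples. H2-Ea-ps, the annotated pseudogene of the E alpha chain, had 5.89 to 22.5 normalized counts in the 8 samples. Heavy chain genes of this family are similar enough to share reads, and reads of FVB alleles were placed on the C57BL/6J reference, so the separate levels of H2-K1, H2-D1 and the class II chains are uncertain. How many reads were lost or exchanged that way was not tested.

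Nppb RNA was nearly absent in Nppb KO ventricles, and none of the 10 presentation genes passed the genotype test. Nppb had 4.13, 1.54, 4.09 and 2.25 normalized counts in Nppb KO replicates 1 to 4, against 2713, 1840, 2761 and 4619 in WT replicates 1 to 4. Nppa, the neighbouring gene for atrial natriuretic peptide, rose to 3603 to 3797 normalized counts in Nppb KO, against 327 to 628 in WT (log2 fold change 3.19, SE 0.21; adjusted p by limma = 0.0189). The Nppa call was lost when any 1 sample other than WT replicate 2 was left out, and in the fit with the replicate number as a block. The test was limma on log2(normalized count + 1) over 16590 genes that averaged 10 normalized counts or more, with Benjamini-Hochberg adjustment and a threshold of 0.05. All 10 members met that mean. By limma 0 of the 10 passed, against 0.0121% of all genes tested, which are Nppb itself and Nppa. At an unadjusted p under 0.05 there was 1 of 10, H2-K1, against 6.26% of all genes tested. EdgeR and DESeq2 on reads recovered from the normalized counts also called 0 of 10, with 1 at an unadjusted p under 0.05 by each. DESeq2 gave no adjusted p for H2-Eb1, Ciita and Tap1, so it could not call them. In none of the 10 did the groups separate without overlap, against 3.76% of all genes tested. Estimates were above 0 for 9 members and below 0 for Ciita, with a median log2 fold change of 0.11, against 0.002 over all genes tested.

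**Figure D1:**
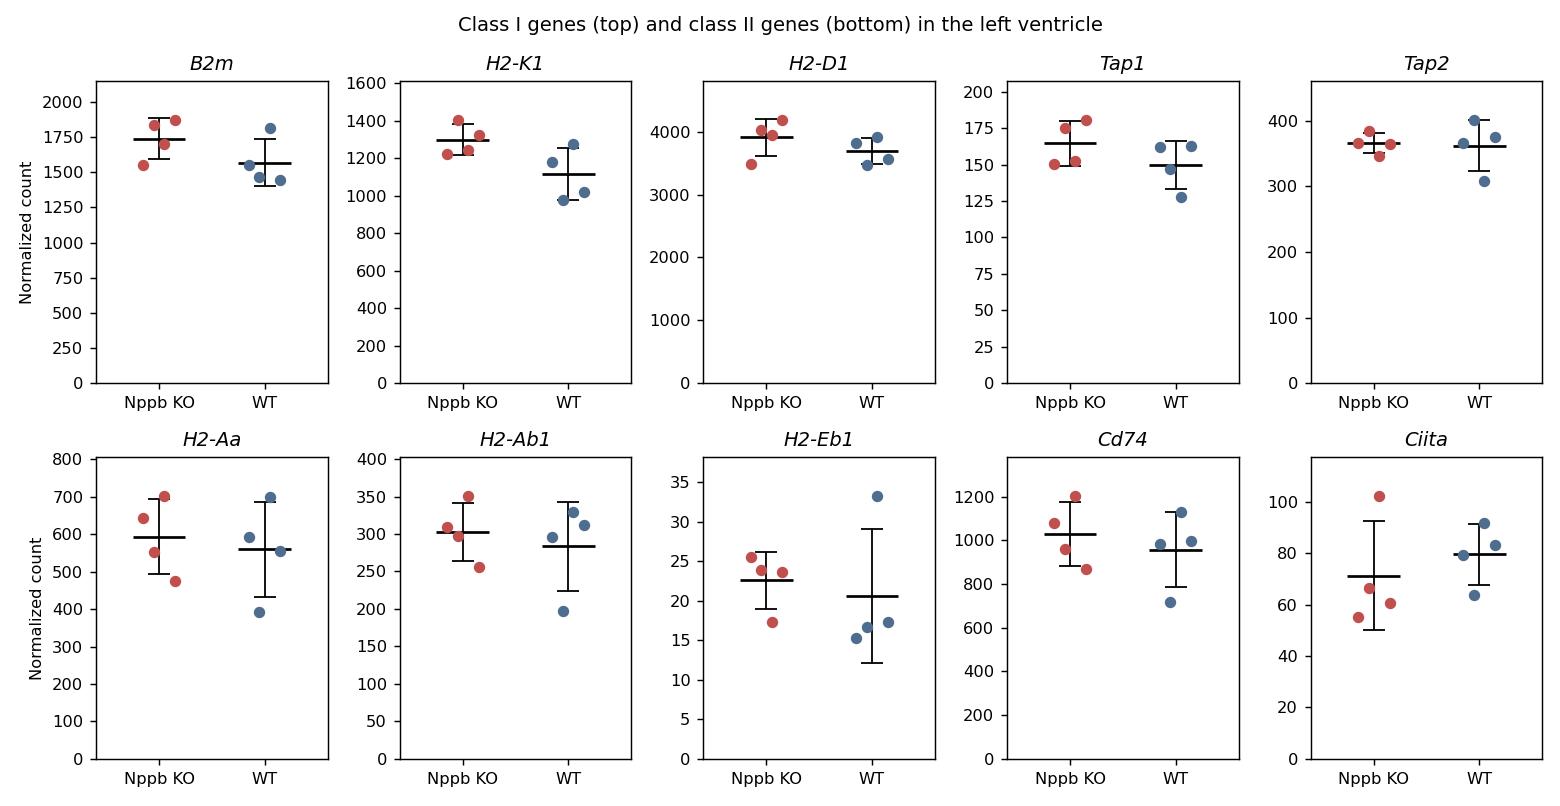
Normalized counts (vertical axes, starting at 0) of the 10 presentation genes in 4 Nppb KO and 4 WT ventricles; points are samples, bars the mean and SD. The groups overlap in every panel, and H2-K1, with means of 1297 in Nppb KO and 1113 in WT, has the largest ratio of means.

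Among the class I chains, H2-K1 had the largest estimate of the 10. H2-K1 encodes the K heavy chain, which binds the peptide and is read by the T cell receptor. It had 1220, 1401, 1243 and 1325 normalized counts in Nppb KO replicates 1 to 4, against 1179, 979, 1275 and 1021 in WT replicates 1 to 4. The 4 Nppb KO values were above 3 of the WT values, and WT replicate 3 fell inside the Nppb KO range. The means were 1297 ± 82.5 in Nppb KO and 1113 ± 138 in WT (SD, n = 4 each). The log2 fold change was 0.23 (SE 0.08; 95% interval 0.06 to 0.40), with a limma adjusted p of 0.730 and an exact two-sided permutation p of 0.0857 over 70 assignments, where 0.0286 is the smallest possible. The authors' deposited table gives H2-K1 a 1.17-fold higher level in Nppb KO with an unadjusted p of 0.00509 and an adjusted p of 0.267. In the same authors' deposited table B2m was 1.11-fold higher in Nppb KO (unadjusted p 0.0433, adjusted p 0.568), and 5 of the 10 genes had an adjusted p there, 0 of them under 0.05.

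B2m, the light chain that every class I heavy chain needs to reach the surface, had 1552, 1835, 1704 and 1869 normalized counts in Nppb KO replicates 1 to 4, against 1554, 1468, 1812 and 1443 in WT replicates 1 to 4. Nppb KO replicate 1 lay among the lower WT samples, and WT replicate 3 among the higher Nppb KO samples. The log2 fold change was 0.15 (SE 0.08; 95% interval -0.01 to 0.32; adjusted p by limma = 0.797). H2-D1, the D heavy chain, had 3493, 4028, 3943 and 4178 normalized counts in Nppb KO samples, against 3825, 3465, 3916 and 3565 in WT samples. Here too Nppb KO replicate 1 was the lowest of its group and the ranges overlapped over most of their width. The log2 fold change of H2-D1 was 0.08 (SE 0.06; 95% interval -0.04 to 0.20; adjusted p by limma = 0.839).

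The K and D heavy chains kept close to the light chain within each sample. Per kb, H2-K1 was 0.219 ± 0.0101 of B2m in Nppb KO and 0.208 ± 0.0111 in WT (SD, n = 4 each; exact two-sided permutation p = 0.143, 1 of 8 ratios tested and unadjusted). H2-D1 was 0.750 ± 0.0166 of B2m in Nppb KO and 0.788 ± 0.0480 in WT (exact permutation p = 0.200, unadjusted). Over the 8 samples the H2-D1 to B2m ratio spanned 1.14-fold, less than the 1.29-fold span of B2m and the 1.21-fold span of H2-D1 on their own. The ratio of H2-D1 to H2-K1 was 3.44 ± 0.194 in Nppb KO and 3.80 ± 0.249 in WT, with overlapping groups (exact permutation p = 0.114, unadjusted). That ratio spanned 1.24-fold over the 8 samples, wider than H2-D1 alone and narrower than the 1.43-fold span of H2-K1. Adjusted over the 8 ratios by Benjamini-Hochberg, the smallest of these permutation p-values was 0.366.

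The peptide transporter subunits ranked the samples differently. Tap1 had 150, 175, 152 and 180 normalized counts in Nppb KO replicates 1 to 4, against 162, 147, 128 and 162 in WT replicates 1 to 4. The Nppb KO values were split between a higher pair (replicates 2 and 4) and a lower pair that lay within the WT range. On the log2 scale the difference in Tap1 was 0.14 (SE 0.11; 95% interval -0.09 to 0.36; adjusted p by limma = 0.858). Tap2 had 366, 385, 346 and 365 normalized counts in Nppb KO samples, against 365, 400, 307 and 375 in WT samples, so WT held both the highest and the lowest value. For Tap2 it was 0.02 (SE 0.08; 95% interval -0.15 to 0.19; adjusted p by limma = 0.984). WT replicate 2 was highest for Tap2 and second lowest for Tap1, and WT replicate 3 was lowest for both.

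**Figure D2:**
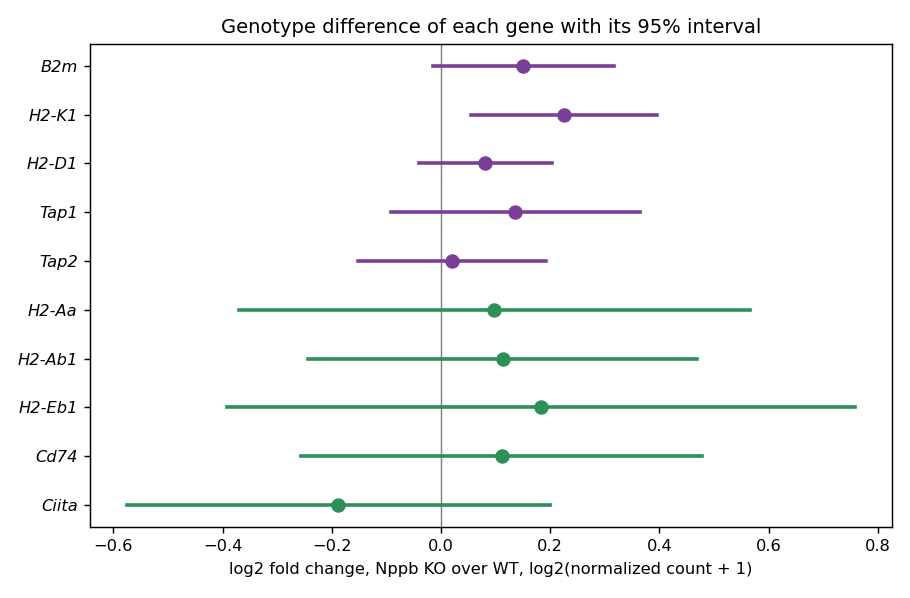
Log2 fold change of each gene (points, horizontal axis) with its 95% limma interval (lines), Nppb KO over WT. The intervals of the class II genes (lower 5 rows) are wider than those of the class I genes, and all but that of H2-K1 include 0.

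Over all 8 samples class II transcripts varied more between animals than class I transcripts and showed no separation by genotype. The spread within groups on the log2 scale was 0.30 for H2-Aa, 0.27 for H2-Ab1, 0.39 for H2-Eb1, 0.24 for Cd74 and 0.31 for Ciita, against 0.10 to 0.15 for the class I genes and a median of 0.14 over all genes tested. H2-Aa had 645, 553, 702 and 475 normalized counts in Nppb KO replicates 1 to 4, against 594, 393, 699.9 and 554 in WT replicates 1 to 4. Nppb KO replicate 3 and WT replicate 3 were the highest samples and WT replicate 2 the lowest, a 1.78-fold span. The log2 fold change of H2-Aa was 0.10 (SE 0.20; 95% interval -0.37 to 0.57; adjusted p by limma = 0.962). H2-Ab1 had 309, 297, 350.5 and 256 normalized counts in Nppb KO samples, against 296, 197, 330.0 and 312 in WT samples, with the same highest pair and the same lowest sample. H2-Ab1 differed between the genotypes by 0.11 (SE 0.16; 95% interval -0.24 to 0.47; adjusted p by limma = 0.937).

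Cd74, the invariant chain, had 1081, 961, 1202 and 867 normalized counts in Nppb KO replicates 1 to 4, against 983, 719, 1128 and 996 in WT replicates 1 to 4. The order of samples again ran from WT replicate 2 at the bottom to Nppb KO replicate 3 at the top, with Nppb KO replicate 4 second lowest. The log2 fold change of Cd74 was 0.11 (SE 0.16; 95% interval -0.26 to 0.48; adjusted p by limma = 0.937). The A chains and the invariant chain held nearly fixed proportions in each ventricle. Per kb, Cd74 was 3.93 ± 0.143 times H2-Aa in Nppb KO and 3.90 ± 0.239 times in WT (SD, n = 4 each; exact permutation p = 0.800, unadjusted), a 1.13-fold span over 8 samples. H2-Aa was 1.32 ± 0.0764 times H2-Ab1 in Nppb KO and 1.34 ± 0.0969 times in WT (exact permutation p = 0.83, unadjusted), a 1.19-fold span. These spans are narrower than the 1.67-fold to 1.78-fold spans of the single genes.

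H2-Eb1 and Ciita departed from that pattern. H2-Eb1 had 25.6, 23.9, 17.4 and 23.7 normalized counts in Nppb KO replicates 1 to 4, against 15.3, 16.7, 33.3 and 17.3 in WT replicates 1 to 4. WT replicate 3 stood apart from the other WT samples, and Nppb KO replicate 3, high for the A chains, was the lowest of its group. Counts for H2-Eb1 rested on 100 reads in the 4 Nppb KO libraries and 78 in the 4 WT libraries, so its precision is limited by counting. On the log2 scale H2-Eb1 differed by 0.18 (SE 0.27; 95% interval -0.39 to 0.76; adjusted p by limma = 0.940), which became 0.43 without WT replicate 3 and 0.070 without WT replicate 1. Ciita had 55.3, 66.4, 102 and 60.8 normalized counts in Nppb KO samples, against 79.3, 63.8, 91.8 and 83.4 in WT samples. Nppb KO replicate 3 held the highest Ciita value of all 8 samples, and the other 3 Nppb KO values lay at the low end together with WT replicate 2. The log2 fold change of Ciita was -0.19 (SE 0.18; 95% interval -0.58 to 0.20; adjusted p by limma = 0.892), which became -0.37 without Nppb KO replicate 3 and -0.082 without Nppb KO replicate 1. Nppb KO replicate 1, lowest for Ciita, stood behind only Nppb KO replicate 3 and WT replicate 3 for H2-Aa, and the ratio of H2-Aa to Ciita per kb spanned 15.5 to 29.3.

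**Figure D3:**
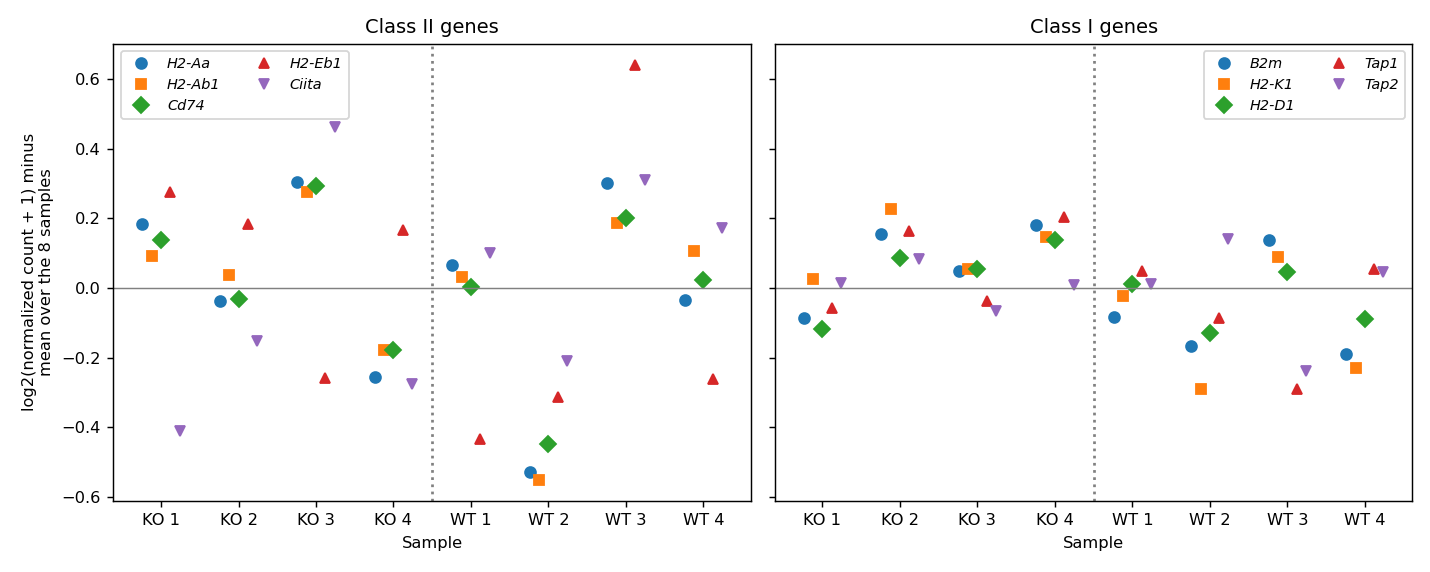
Deviation of each gene in each sample from its mean over 8 samples, on log2(normalized count + 1) (vertical axis), for class II (left) and class I genes (right); markers are genes and the dotted line parts Nppb KO from WT samples. H2-Aa, H2-Ab1 and Cd74 stay close together in every sample, lowest in WT replicate 2 and high in Nppb KO replicate 3 and WT replicate 3.

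The direction of the H2-Aa, H2-Ab1 and Cd74 estimates rested on 1 library. Without WT replicate 2 the log2 fold change of H2-Aa became -0.062, that of H2-Ab1 -0.052 and that of Cd74 -0.020, none past the threshold. The SE of those genes fell in that fit as well, to 0.14, 0.10 and 0.11, against 0.20, 0.16 and 0.16 with all samples. In the same fit the SE was 0.295 for H2-Eb1, 0.19 for Ciita and, among the class I genes, 0.12 for Tap1. Averaged over H2-Aa, H2-Ab1, H2-Eb1 and Cd74, the deviation from the mean of 8 samples was -0.46 in WT replicate 2 on the log2 scale, against -0.11 to 0.17 in Nppb KO and -0.08 to 0.33 in the other WT samples. Averaged over B2m, H2-K1, H2-D1, Tap1 and Tap2 it was -0.04, 0.14, 0.01 and 0.14 in Nppb KO replicates 1 to 4, against -0.01, -0.11, -0.05 and -0.08 in WT replicates 1 to 4. That class I average overlapped only through Nppb KO replicate 1 and WT replicate 1, and no test is given for it because its genes were chosen as a set.

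The genes most like each class over the 8 samples were sought outside the 10 members, at a mean of at least 50. That floor also left out the class II genes H2-DMa, H2-DMb1, H2-DMb2 and H2-Ea-ps. For this comparison each gene was standardised before averaging, unlike in the averages above. The genes named here were not presentation genes. Among 11188 named genes with a mean of at least 50, the class II average was most like Myl12a, a regulatory light chain of nonmuscle myosin (Pearson r = 0.965), Ubfd1 (0.964), the nuclear export receptor Xpo1 (0.950), the glycosyltransferase Mgat3 (0.948) and the death receptor Tnfrsf25 (0.946). The class I average was most like the RNA cleavage factor Cpsf6 (0.983), the kinesin motor Kif3b (0.968), Actr2, a subunit of the actin-nucleating Arp2/3 complex (0.966), Fam199x (0.956) and the inositol phosphatase Impa1 (0.952). With 8 samples and so many genes compared, these are descriptions of how the samples are ordered, in libraries that the genes share, and they carry no p.

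The other genes of the pathways were read from 5 lists that hold 60 tested genes, with 7 more too low for the test. By limma 0 of the 60 passed in either direction, against 0.0121% of all genes tested. An unadjusted p under 0.05 was found for 0 of the 60, against 6.26% of all genes tested. EdgeR and DESeq2 also called 0. The groups separated without overlap in 2 of the 60, Erap1 and March8, against 3.76% of all genes tested. Erap1, the endoplasmic reticulum aminopeptidase that trims peptides for class I, had 907, 909.6, 906 and 952 normalized counts in Nppb KO samples, against 876, 885, 796 and 855 in WT samples. The lowest Erap1 value in Nppb KO was above the highest in WT, with a log2 fold change of 0.11 (SE 0.05; adjusted p by limma = 0.796). March8, a ubiquitin ligase that removes class II and other receptors from the surface, had 995, 1028, 1034 and 1033 normalized counts in Nppb KO samples, against 1052, 1075, 1041 and 1128 in WT samples. Its log2 fold change was -0.07 (SE 0.05; adjusted p by limma = 0.825).

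Among the further class I heavy chain genes, 18 of 20 were tested, 10 with estimates above 0 and 8 below, with a median of 0.05. Hfe, a class I-like regulator of iron uptake, averaged 225 ± 21.4 normalized counts in Nppb KO and 199 ± 28.5 in WT (SD, n = 4 each), a log2 fold change of 0.19 (SE 0.11; adjusted p by limma = 0.808). H2-Q4, a nonclassical class I gene, averaged 597 ± 58.5 in Nppb KO and 532 ± 80.7 in WT, a log2 fold change of 0.17 (SE 0.10; adjusted p by limma = 0.814). H2-Q4 was 529, 620.0, 573 and 665 in Nppb KO replicates 1 to 4, against 566, 475, 629 and 457 in WT replicates 1 to 4, the same low WT pair as for H2-K1. The 12 peptide supply and loading genes, which include the chaperones Calr and Canx, the loading bridge Tapbp and the immunoproteasome subunits Psmb8, Psmb9 and Psmb10, had a median of 0.03. Psmb9, whose promoter window overlaps that of Tap1, averaged 105 ± 16.9 in Nppb KO and 95.4 ± 15.96 in WT, a log2 fold change of 0.14 (SE 0.15). Psmb10 averaged 662 ± 19.3 in Nppb KO and 610 ± 85.0 in WT, a log2 fold change of 0.13 (SE 0.08; adjusted p by limma = 0.816).

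Of the class II chaperone, chain and protease list 11 of 14 genes were tested, with a median of 0.02, and H2-Oa, H2-Ob and H2-Eb2 were too low. H2-DMa, a subunit of the peptide editor of class II named here after its values were seen, had 31.4, 29.3, 47.0 and 25.9 normalized counts in Nppb KO samples, against 31.3, 26.5, 45.2 and 27.1 in WT samples. Its highest samples were again Nppb KO replicate 3 and WT replicate 3, with a log2 fold change of 0.03 (SE 0.23). Ctsl, a lysosomal protease, averaged 1726 ± 72.8 in Nppb KO and 1627 ± 89.3 in WT, a log2 fold change of 0.09 (SE 0.05; adjusted p by limma = 0.810). The 14 transcriptional regulators, among them Nlrc5, the class I counterpart of Ciita, and the RFX and NF-Y subunits, had a median of -0.01. Nlrc5 averaged 90.5 ± 20.2 in Nppb KO and 88.9 ± 15.5 in WT (log2 fold change 0.02, SE 0.17). Irf2 had a log2 fold change of -0.10 (SE 0.09; adjusted p by limma = 0.869) and Nfya one of -0.09 (SE 0.09; adjusted p = 0.898). Of the interferon gamma list 7 of 9 genes were tested, with a median of 0.01. Ifng, the main inducer of Ciita, had 0 counts in all Nppb KO libraries and at most 0.763 normalized counts in WT. Jak1 had a log2 fold change of -0.07 (SE 0.06; adjusted p by limma = 0.857) and Ptpn2 one of 0.10 (SE 0.08; adjusted p = 0.859).

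**Figure D4:**
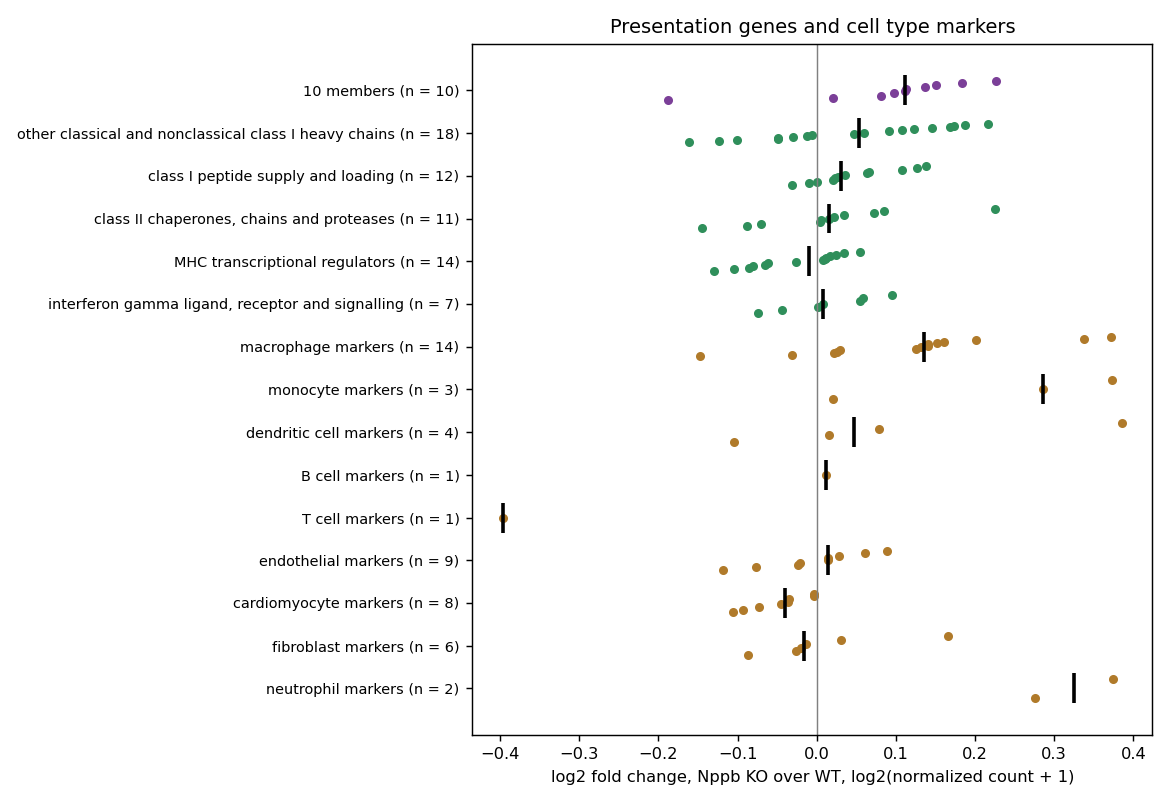
Log2 fold change (horizontal axis, Nppb KO over WT) of each tested gene in the presentation lists (green), the cell type marker lists (brown) and the 10 members (purple); black bars are list medians. The medians of the 5 presentation lists lie between -0.01 and 0.05.

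Markers of the cells that could carry these transcripts were read from 10 lists. Limma called 0 of 48 tested genes, against 0.0121% of all genes tested. An unadjusted p under 0.05 was found for 3 of the 48, close to the 6.26% of all genes tested. Macrophage markers were well detected, all 14 passing the mean of 10, and their summed level ran from 5275 to 6016 normalized counts in Nppb KO, against 4833 to 6160 in WT. Their median log2 fold change was 0.14, with 12 estimates above 0 and 2 below. Mrc1, a mannose receptor, was at 0.16 (SE 0.07; adjusted p by limma = 0.753), Cd68 at 0.34 (SE 0.16; adjusted p = 0.796) and F13a1, a coagulation factor subunit, at 0.13 (SE 0.09; adjusted p = 0.851). WT replicate 2, lowest for H2-Aa, H2-Ab1 and Cd74, had the highest macrophage sum of all 8 samples (6160). That sample also had the lowest dendritic cell sum (876) and the highest T cell sum (87.3). Dendritic cell markers summed to 951 to 1048 in Nppb KO and 876 to 1142 in WT, most of it from Zbtb46, which averaged 684. The sum therefore mostly follows that 1 gene, and whether its RNA came from dendritic cells was not tested. Of the 10 markers 4 were tested, with a median log2 fold change of 0.05, and Xcr1 and Flt3 stayed at or below 12.4 in every sample. Clec10a, a lectin of dendritic cells and macrophages, had 112, 97.3, 134 and 87.9 in Nppb KO samples, against 65.6, 73.6, 91.8 and 98.5 in WT samples (log2 fold change 0.38, SE 0.16; adjusted p by limma = 0.753). The other tested dendritic cell markers did not share that size, with log2 fold changes of -0.10 for Clec9a (SE 0.12), 0.02 for Zbtb46 (SE 0.09) and 0.08 for Itgax (SE 0.29). Of the 6 monocyte markers 3 were tested, with a median of 0.29, and 3 were too low for the test. Cx3cr1 was at 0.37 (SE 0.16; adjusted p by limma = 0.769), Ccr2 at 0.29 (SE 0.28) and Ly6c2 at 0.02 (SE 0.10).

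Lymphocyte markers were low. B cell markers summed to 95.7 to 130 in Nppb KO and 85.4 to 128 in WT, most of it from Ighm. T cell markers summed to 40.6 to 54.8 in Nppb KO and 39.9 to 87.3 in WT, with Cd4 alone tested (log2 fold change -0.40, SE 0.42). NK cell markers summed to 24.7 to 41.9 in Nppb KO and 24.5 to 39.0 in WT, with 0 tested. Endothelial markers, from cells that carry much of the class I of a tissue, summed to 17482 to 20515 in Nppb KO and 18083 to 19916 in WT. Their median log2 fold change was 0.01 over 9 genes, with 5 estimates above 0 and 4 below, from -0.12 to 0.09. Pecam1 among them had a log2 fold change of 0.09 (SE 0.06; adjusted p by limma = 0.828), Cdh5 one of 0.06 (SE 0.06) and Kdr one of 0.03 (SE 0.08). Cardiomyocyte markers, which define the labelled tissue, had a median of -0.04 over 8 genes, and all 8 estimates were below 0. Of the 10 presentation genes 9 were above 0, and of all genes tested 8447 were above 0 and 8143 below. Genes of a list share the same libraries, so their signs are not independent. Myh6, the alpha myosin heavy chain, lay between 647580 and 781770 normalized counts in the 8 samples (log2 fold change -0.11, SE 0.05), Ttn, which encodes titin, was at -0.04 (SE 0.05) and the calcium release channel Ryr2 at -0.07 (SE 0.05). Fibroblast markers had a median of -0.02 over 6 genes, with the matrix genes Dcn at -0.09 (SE 0.05) and Col3a1 at 0.17 (SE 0.15). Neutrophil markers had a median of 0.32 over the 2 tested, Csf3r at 0.28 (SE 0.23) and S100a9 at 0.37 (SE 0.95), with Ly6g at 0 in every sample. The part of these cell types in the levels of the 10 genes was not tested.

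Of the 10 genes 7 lie on chromosome 17 in the H2 complex, and B2m lies on chromosome 2, Ciita on chromosome 16 and Cd74 on chromosome 18 (build mm10, GENCODE M21). The H2 region from H2-K1 to H2-D1 spans 1271.5 kb of chromosome 17 and holds 66 tested genes, 7 of them members. By limma 0 of the 66 passed, against 0.0121% of all genes tested, with 3 at an unadjusted p under 0.05, against 6.26%. The 66 had a median log2 fold change of -0.03, with 29 above 0 and 37 below. The 7 members all had estimates above 0, from 0.02 for Tap2 to 0.23 for H2-K1. The largest estimate in the region was that of Aif1, a calcium-binding protein of macrophages (0.69, SE 0.27; adjusted p by limma = 0.753), followed by the cytokine gene Tnf (0.59, SE 0.29; adjusted p = 0.796). Tnxb, a matrix glycoprotein, had the smallest p (log2 fold change -0.13, SE 0.04; adjusted p = 0.664). Aif1, Tnf and Tnxb were picked after their values were seen.

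**Figure D5:**
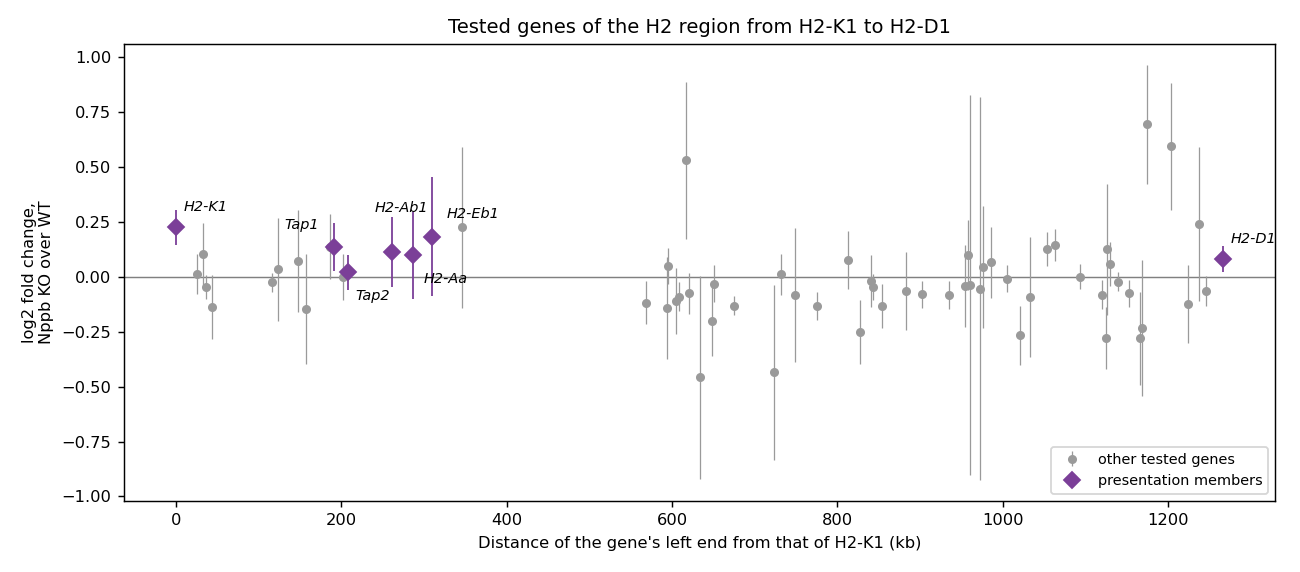
Log2 fold change with its SE (vertical axis, Nppb KO over WT) of the 66 tested genes from H2-K1 to H2-D1, by distance of each gene's left end from that of H2-K1 in kb; purple diamonds are members and grey points the other genes. The members lie between 0.02 and 0.23, within the range of their neighbours.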

How the data were processed

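The authors deposited a signal per gene and sample, the normalized count. A second deposited table holds the authors' own test, with log2 fold changes that run WT over Nppb KO, p-values, and a geometric mean signal per genotype. STAR, DESeq2 and build mm10 are named per the submitters' processing notes. Versions, annotation, counter, strand setting and the treatment of multi-mapping reads: not given in the sources used here. A stranded kit received 900 ng of total RNA and paired ends of 125 bp were read, per the labels' protocols. Dividing each sample by its lowest nonzero value recovered whole reads (100.0% of values, tolerance 0.01). All columns belonged to a sample. Samples were grouped by title. The labels number the samples of each genotype without saying what a number marks, and p-values measure the spread between these 8 samples. No replicates were copies of each other (smallest chi-square per degree of freedom 4.87).

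Symbols, places and exon lengths came from GENCODE M21 (40254 IDs matched; 19316 rows carry no symbol of their own). Limma 3.58.1 (R 4.3.3) with a mean-variance trend and robust moderation tested all genes on log2(normalized count + 1), Nppb KO minus WT, which understates the change of low genes. EdgeR 4.0.16 and DESeq2 1.42.0 ran on recovered reads as alternatives, beside other pseudocounts, filters, scalings, variance models, the replicate block and each sample left out. Scripts were tested on simulated counts. The members and lists were chosen with earlier results of these data known. Named were all members, Nppb and Nppa, list members past the threshold or else up to 2 with the smallest p, the up to 2 most abundant markers of each cell list (those too low for the test are given only within their list's sum), and the 5 genes most like each class average; H2-DMa, H2-Ea-ps, Itgax, Xcr1, Flt3, Ly6g, Psmb9, Nlrc5, Ifng, Aif1, Tnf and Tnxb were picked after their values were seen. The members of a ratio share a library, so ratios are within samples. The size of a ratio per kb depends on the merged exon lengths, and its fold span over samples does not.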

Additional observations from a re-analysis of the deposited data

Results flagged for a closer look

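A sample standing apart from the other 3 of its group by Dixon's ratio was found in 5 of 90 groups of 4 checked, over 45 genes, and chance alone gives about 1 in 20 such groups. Among the 10 presentation genes it was found for H2-Eb1, where WT replicate 3 had 33.27 normalized counts and the other WT samples 15.25 to 17.33. For Erap1 it was Nppb KO replicate 4, with 951.8 and the other Nppb KO samples at 906.4 to 909.6. For March8 it was Nppb KO replicate 1, with 994.6 and the others at 1028 to 1034. For Cd68, a macrophage marker, it was again Nppb KO replicate 1, with 85.84 and the others at 119.6 to 120.5. For F13a1, another macrophage marker, it was WT replicate 2, with 1133 and the other WT samples at 905.4 to 940.7, the sample that was lowest for H2-Aa, H2-Ab1 and Cd74.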

How the results depend on the processing

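Of the 10 genes 0 passed the threshold under any of 19 alternatives, and 184 of 189 single-gene values kept their direction and side of the threshold. H2-Eb1, Ciita and Tap1, without an adjusted p by DESeq2, were counted there as not past it. Without WT replicate 2 the log2 fold change turned to -0.062 for H2-Aa, -0.052 for H2-Ab1 and -0.020 for Cd74, and with each sample left out in turn it reached 0.21, 0.19 and 0.20 for those genes. Tap2 ranged from -0.056 (without WT replicate 3) to 0.071, with -0.0043 without Nppb KO replicate 2; the cause was not tested. Over the alternatives H2-K1 ranged from 0.17 to 0.29 (adjusted p 0.530 to 0.956), B2m from 0.11 to 0.22, H2-D1 from 0.048 to 0.13, Tap1 from 0.063 (without WT replicate 3) to 0.18, H2-Eb1 from 0.070 to 0.43 and Ciita from -0.37 to -0.082. H2-Eb1 gave no value at a mean of at least 50. Over all genes, limma called 2, against 5 with no low-value filter, 4 with sample weights, 22 with DESeq2 and 1 to 6 with a sample left out. Same-numbered samples did not deviate together over all genes tested (r between -0.07 and 0.03), and no label says whether the numbers pair them. With the replicate block 3 genes were called, 0 of them among the 10. In that fit the SE was 0.10 for H2-Aa, 0.12 for H2-Ab1 and 0.09 for Cd74, against 0.20, 0.16 and 0.16 without the block. It also fell for Ciita, Tap1 and Tap2, and rose for B2m, H2-K1, H2-D1 and H2-Eb1. Whether same-numbered samples are paired for these genes was not tested. Depth limits H2-Eb1, and the tests could miss differences inside the intervals given.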
